A study of Mus musculus with 86 samples.

Results

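Clec4f, Vsig4, Marco, Cd5l, Folr2, Fcna and Cd163 are genes of Kupffer cells, the macrophages that live in the sinusoids of the liver, and some of them also mark resident macrophages of other organs. The 7 genes were taken by symbol from the FPKM tables, which hold 38277 genes, and by Ensembl identifier from the count files, which hold 31054, with no threshold on their values. The study addressed how loss or inhibition of MERTK, a TAM-family receptor with which macrophages engulf apoptotic cells, alters scarring of organs. Whole liver, kidney and lung of mice were sequenced, and the labels gave 86 samples in all. In the knockout experiment the liver groups were bile duct ligation (BDL) in mice labelled Mertk knockout, BDL in wild-type mice, sham surgery under the knockout label and sham surgery in wild-type mice, with 4 libraries each. Ligation blocks the outflow of bile and is used to scar the liver. The kidney groups had the same layout with unilateral ureteral obstruction (UUO), which is used to scar the kidney. In the inhibitor experiment every mouse was labelled wild type and was injected with UNC569, a small-molecule inhibitor of MERTK, or with its solvent DMSO. The groups were BDL with UNC569 (4 columns of values), BDL with DMSO (6) and sham with either agent (3 each) in liver, UUO with UNC569 (7), UUO with DMSO (4) and sham with either agent (3 each) in kidney, and bleomycin with either agent (6 each) and sham with either agent (3 each) in lung. The labels used here name no allele, strain, age, dose or time after injury, and the protocols call the libraries biological replicates without naming the animals.

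Kupffer cells settle before birth, are kept alive by CSF1 and hold their identity through signals from endothelial and stellate neighbours that act on factors such as LXR alpha and SMAD4. When they die, monocytes from the blood can take their place and switch on the same genes at different speeds, with Timd4 known in mice as a late one. The products of the 7 genes catch material from blood: CLEC4F is a lectin for galactose-ended sugars, VSIG4 a receptor for complement fragments on microbes, MARCO a class A scavenger receptor for bacteria and particles, CD163 the receptor for haemoglobin bound to haptoglobin, and FOLR2 a folate receptor. CD5L and ficolin A, the product of Fcna, are secreted. CD5L is a scavenger-receptor protein that supports macrophage survival, and ficolin A is a lectin that starts the lectin pathway of complement.

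On GRCm38 the GENCODE vM21 annotation placed Clec4f (ENSMUSG00000014542) at chr6:83644542-83656187, Cd163 (ENSMUSG00000008845) at chr6:124304656-124330527, Vsig4 (ENSMUSG00000044206) at chrX:96247203-96293438 and Marco (ENSMUSG00000026390) at chr1:120474538-120505024. It placed Cd5l (ENSMUSG00000015854) at chr3:87357881-87371073, Folr2 (ENSMUSG00000032725) at chr7:101839988-101857194 and Fcna (ENSMUSG00000026938) at chr2:25624666-25628030. All are protein-coding genes with 1374 to 5461 exonic bases. Of the 1546 exonic bases of Folr2, 975 (63.1%) lie opposite the antisense gene Gm10602, and of the 1374 of Fcna, 90 (6.55%) lie opposite Fcnaos. The promoters of 4 members are shown. They are Marco, Vsig4 and Cd5l, whose RNA was higher in ligated wild-type liver, and Clec4f, the defining Kupffer gene, which did not pass the test. The sequences are RefSeq reference sequence of GRCm38.p6, 5′ to 3′ on the gene's strand, and end at the base before the annotated start. They lie at chr1:120505025-120505274 (minus strand, Marco), chrX:96293439-96293688 (minus strand, Vsig4), chr3:87357631-87357880 (plus strand, Cd5l) and chr6:83656188-83656366 (minus strand, Clec4f). Capitals mark GAGGAA on either strand, a core bound by ETS factors such as PU.1 (gene Spi1), the master factor of macrophages. Among members not shown, the corresponding stretch of Cd163, which was also higher in ligated wild-type liver, held 0 matches. That of Fcna, which did not pass, held 3, so no link between the marks and the liver results is read.
Marco: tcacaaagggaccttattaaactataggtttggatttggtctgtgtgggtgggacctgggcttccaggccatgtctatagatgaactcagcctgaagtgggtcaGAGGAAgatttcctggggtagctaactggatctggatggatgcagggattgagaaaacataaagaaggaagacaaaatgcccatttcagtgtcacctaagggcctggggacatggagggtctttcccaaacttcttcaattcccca
Vsig4: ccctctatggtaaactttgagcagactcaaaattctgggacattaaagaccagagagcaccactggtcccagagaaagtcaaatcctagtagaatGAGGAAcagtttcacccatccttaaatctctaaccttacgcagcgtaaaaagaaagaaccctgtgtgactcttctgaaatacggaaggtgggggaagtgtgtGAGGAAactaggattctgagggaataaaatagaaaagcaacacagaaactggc
Cd5l: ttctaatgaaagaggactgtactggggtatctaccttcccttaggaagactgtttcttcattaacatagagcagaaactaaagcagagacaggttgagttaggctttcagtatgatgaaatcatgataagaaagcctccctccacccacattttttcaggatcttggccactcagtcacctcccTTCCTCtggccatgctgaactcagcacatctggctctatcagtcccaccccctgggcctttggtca
Clec4f: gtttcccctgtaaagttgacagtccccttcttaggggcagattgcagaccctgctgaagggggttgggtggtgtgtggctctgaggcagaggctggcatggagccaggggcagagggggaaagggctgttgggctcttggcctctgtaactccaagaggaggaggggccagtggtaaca
GAGGAA was in the 300-base windows around the starts of 4 of the 7 genes (Marco, Vsig4, Cd5l and Fcna) and in 28.3% of 32851 such windows over all genes, both strands searched. TGCTGA, letters bound by MAF factors, was in the windows of 5 members (Clec4f, Vsig4, Cd5l, Folr2 and Fcna), against 19.5% of windows. AGGTCA of nuclear receptors was in the window of 1 member (Clec4f) against 16.3% of windows, and TGANTCA of AP-1 in 1 (Folr2) against 7.81%. GTGGGAA of RBPJ (6.38% of windows) and CAGACA of SMAD factors (21%) were in none. These matches describe letters only.

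Liver libraries of the knockout experiment held 14.5 to 23.4 M reads in genes, and the 14 kidney libraries used held 7.22 to 28.5 M. The submitters noted a bad sequence file for 4 of the 16 liver libraries (BDL KO 1, BDL KO 3, BDL Sham WT 3 and BDL Sham WT 4). BDL KO 1 was the lowest of the 4 knockout-labelled ligated livers for all 7 members, and BDL KO 2 the highest for 6 of them. Mertk itself, the targeted gene, had 6.95 to 18.8 CPM (counts scaled to the library's total) in ligated livers labelled knockout against 21.3 to 28.4 CPM in ligated wild-type livers. In sham liver it was 10.8 to 20.5 CPM under the knockout label and 10.5 to 18.1 CPM in wild type, and the groups overlapped. In kidney Mertk was 44.5 to 63.02 CPM under the knockout label and 51.1 to 65.03 CPM in wild type after obstruction, and 59.6 to 83.5 CPM under the knockout label and 52.6 to 79.6 CPM in wild type after sham surgery. Whole-gene totals do not check an allele, and "knockout" is used here as a label. The kidney libraries titled UUO Sham WT 1 and UUO WT 1 were left out by the rule that set up the gene set. UUO Sham WT 1 held 1010 reads of Clec4f. Core macrophage genes (13 genes such as Adgre1, Csf1r and Cd68) were detected in all groups: their summed level in liver was 241 to 1051 CPM in knockout-labelled ligated, 941 to 1754 CPM in wild-type ligated, 214 to 323 CPM in knockout-labelled sham and 286 to 323 CPM in wild-type sham livers.

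Ligation of the bile duct in wild-type mice raised 4 of the 7 Kupffer genes, Marco, Cd5l, Vsig4 and Cd163, and left Clec4f, Fcna and Folr2 short of the threshold. The largest difference was that of Marco, which was low in sham liver. Changes are log2 fold changes ± SE of ligated over sham, tested with edgeR's quasi-likelihood test on counts with Benjamini-Hochberg adjustment over all 13492 genes tested, and levels are TMM-normalised CPM. The 4 that passed compare with 29.1% of all genes tested that passed in either direction. The median over the 6 members tested was 1.88, against 0.03 over all genes. In whole tissue, more cells of a type and more RNA per cell cannot be told apart.

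Among the receptors, Marco had 101, 56.9, 74.3 and 67.1 CPM in ligated wild-type livers against 4.12, 3.66, 4.20 and 3.00 CPM in sham wild-type livers. The groups were far apart, and the log2 fold change was 4.32 ± 0.76 (adjusted p = 0.000943). Vsig4 had 44.3, 47.7, 56.0 and 50.8 CPM in ligated wild-type livers against 12.1, 15.8, 9.98 and 14.5 CPM in sham wild-type livers, with no overlap. Its log2 fold change was 1.92 ± 0.46 (adjusted p = 0.00646). Cd163, the haemoglobin scavenger, had 32.4, 27.5, 17.7 and 36.6 CPM in ligated wild-type livers against 9.94, 7.44, 6.33 and 7.95 CPM in sham wild-type livers. All ligated libraries again lay above all sham ones, with a log2 fold change of 1.85 ± 0.47 (adjusted p = 0.00911).

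Of the secreted proteins, Cd5l had 152, 158, 364 and 177 CPM in ligated wild-type livers against 49.0, 54.1, 40.3 and 61.3 CPM in sham wild-type livers. Library 3 stood above the other ligated ones, every ligated library was above every sham one, and the log2 fold change was 2.06 ± 0.64 (adjusted p = 0.0244). This call was lost without library 3 of ligated wild type (1.68, adjusted p = 0.0703) and without any single wild-type sham library (1.95 to 2.15, adjusted p = 0.0504 to 0.0674). Fcna had 13.2, 15.6, 15.99 and 24.6 CPM in ligated wild-type livers against 12.4, 11.6, 9.36 and 14.7 CPM in sham wild-type livers. The groups overlapped and the log2 fold change of 0.53 ± 0.38 did not pass (adjusted p = 0.312). Clec4f, the lectin that marks mouse Kupffer cells, had 80.9, 84.3, 169 and 113 CPM in ligated wild-type livers against 65.8, 80.2, 62.8 and 79.5 CPM in sham wild-type livers. Every ligated library was above every sham one, but by little, and the log2 fold change of 0.63 ± 0.37 did not pass (adjusted p = 0.209, 95% interval -0.15 to 1.41). It passed in a fit without the libraries BDL KO 1 and 3 (0.61 ± 0.21, adjusted p = 0.0281).

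Folr2 could not be tested in liver on the counts that ignore strand, since reads that also overlap Gm10602 were set aside and 1 to 14 reads were left in each library. The sum of the 2 columns counted by strand, an alternative added after seeing the data, held 7 to 459 reads a library but may count reads of Gm10602 as Folr2. On it Folr2 had 8.10, 7.74, 18.03 and 12.0 CPM in ligated wild-type livers against 6.44, 6.83, 4.66 and 5.70 CPM in sham wild-type livers. Every ligated library was above every sham one, and the log2 fold change of 0.96 ± 0.53 did not pass (adjusted p = 0.184). The same sum gave 0.36 ± 0.40 for Fcna (adjusted p = 0.520).

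**Figure D1:**
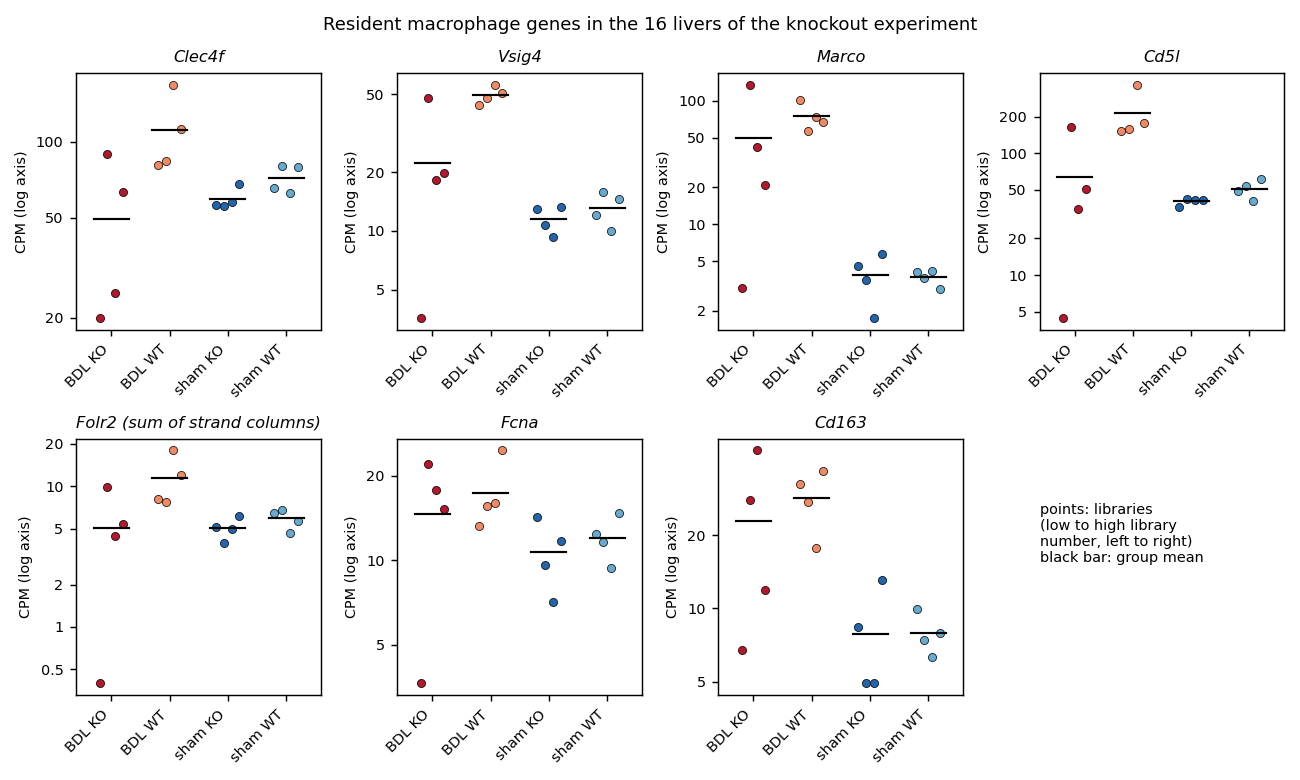
TMM-normalised CPM (log axis) of the 7 genes in the 16 livers of the knockout experiment, groups from left to right BDL under the knockout label, BDL wild type, sham under the knockout label and sham wild type. Points are libraries and black bars arithmetic means; Folr2 is the sum of the columns counted by strand. Marco was 56.9 to 101 CPM in ligated wild-type and 3.00 to 4.20 CPM in sham wild-type livers, and the ligated livers labelled knockout spread widely, from 3.02 to 135 CPM for Marco.

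Other genes of Kupffer cells were counted in the same comparison, in which 29.1% of all genes tested passed in either direction. Of a list of 10, 9 were tested, 5 were higher and 1 was lower (median log2 1.59). Il18bp, an inhibitor of interleukin-18, rose by 2.26 (log2, adjusted p = 0.000153) and Hmox1, the enzyme that breaks down haem, by 2.42 (adjusted p = 0.00073). Timd4, a receptor for phosphatidylserine on long-lived resident macrophages, rose by 1.59 ± 0.57 (adjusted p = 0.0472). Nr1h3, which encodes LXR alpha, fell by 0.75 (log2, adjusted p = 0.0309). Of the core macrophage genes 11 of 13 rose (median 2.13), among them Csf1r, the receptor for CSF1, by 1.88 ± 0.42 (adjusted p = 0.0038) and Adgre1, which encodes F4/80, by 2.07 ± 0.58 (adjusted p = 0.0150). Genes of recruited monocytes and lipid-laden macrophages moved further, with 9 of 10 higher and a median of 3.72. Gpnmb, a lysosomal membrane glycoprotein, rose by 8.19 ± 1.01 (adjusted p = 7.3e-05) and Itgam, which encodes CD11b, by 5.01 ± 0.66 (adjusted p = 0.000117).

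Genes with related roles were counted in the same comparison, against the same 29.1% of all genes tested. Counts of lists near that share are not read as results. Of 11 signals and factors that hold Kupffer identity, listed apart from Nr1h3, 5 rose and 0 fell (median 0.65), among them Spi1 at 2.13 (adjusted p = 0.00286) and Csf1 at 1.61 (adjusted p = 0.00725). Of the other scavenger receptors 4 of 7 tested rose, with the fatty acid receptor Cd36 at 2.36 (adjusted p = 0.000146) and the class A receptor Msr1 at 1.96 (adjusted p = 0.00245). Of 8 genes of haemoglobin and haem clearance 3 rose, including the haem carrier Hpx at 1.74 (adjusted p = 0.00421), beside Hmox1. Of 7 genes tested of the lectin pathway that ficolin A starts 1 rose and 2 fell, with the protease Masp2 at -1.18 (adjusted p = 0.000106) and the mannose-binding lectin Mbl1 at -1.06 (adjusted p = 0.00022). Markers of other cells moved too and their part in the members' results was not tested: 4 of 4 cholangiocyte genes rose (median 3.51), 4 of 4 neutrophil genes tested rose (median 3.32), 0 of 6 genes of sinusoidal endothelium passed (median -0.55) and 2 of 6 hepatocyte genes fell. The summed hepatocyte level was 45896 to 81494 CPM in ligated wild-type and 92539 to 113911 CPM in sham wild-type livers.

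Set against the core macrophage genes of the same library, Vsig4, Cd5l and Cd163 had overlapping groups in ligated and sham wild-type liver. Marco was higher, and Clec4f, Fcna and Folr2 were lower, as were most genes of the liver. The ratio used is the log2 CPM of a member minus the mean log2 CPM of the 13 core genes, and it is described by values with no test. The core mean itself was 5.70 in ligated wild-type against 3.78 in sham wild-type livers (difference 1.92). By the same ratio, groups did not overlap for 80.2% of all genes tested, 78.9% being lower and 1.28% higher, and the median difference over all genes was -1.92. Vsig4 stood at -0.07 in ligated wild-type against -0.08 in sham wild-type livers, Cd5l at 1.93 against 1.88 and Cd163 at -0.91 against -0.79, and all 3 had overlapping groups. Cd163 spread from -2.25 to -0.14 in ligated and from -0.96 to -0.44 in sham wild-type livers, so overlap does not show that it was unchanged. The ratio of Marco was 0.50 in ligated wild-type against -1.84 in sham wild-type livers, with no overlap, a direction shared by the 1.28% of genes named above. For Clec4f it was 1.04 in ligated wild-type against 2.38 in sham wild-type livers, for Fcna -1.61 against -0.20, and for Folr2 (sum of columns by strand) -2.16 against -1.12. The ligated groups of these 3 genes did not overlap their sham groups, and since 78.9% of all genes were likewise lower, nothing particular to the 3 is read from it. Under the knockout label Clec4f showed the lower ratio as well (1.196 in ligated against 2.36 in sham livers, no overlap, against 12.9% of all genes with no overlap), while Marco (0.46 in ligated against -1.65 in sham livers) and the other members overlapped.

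**Figure D2:**
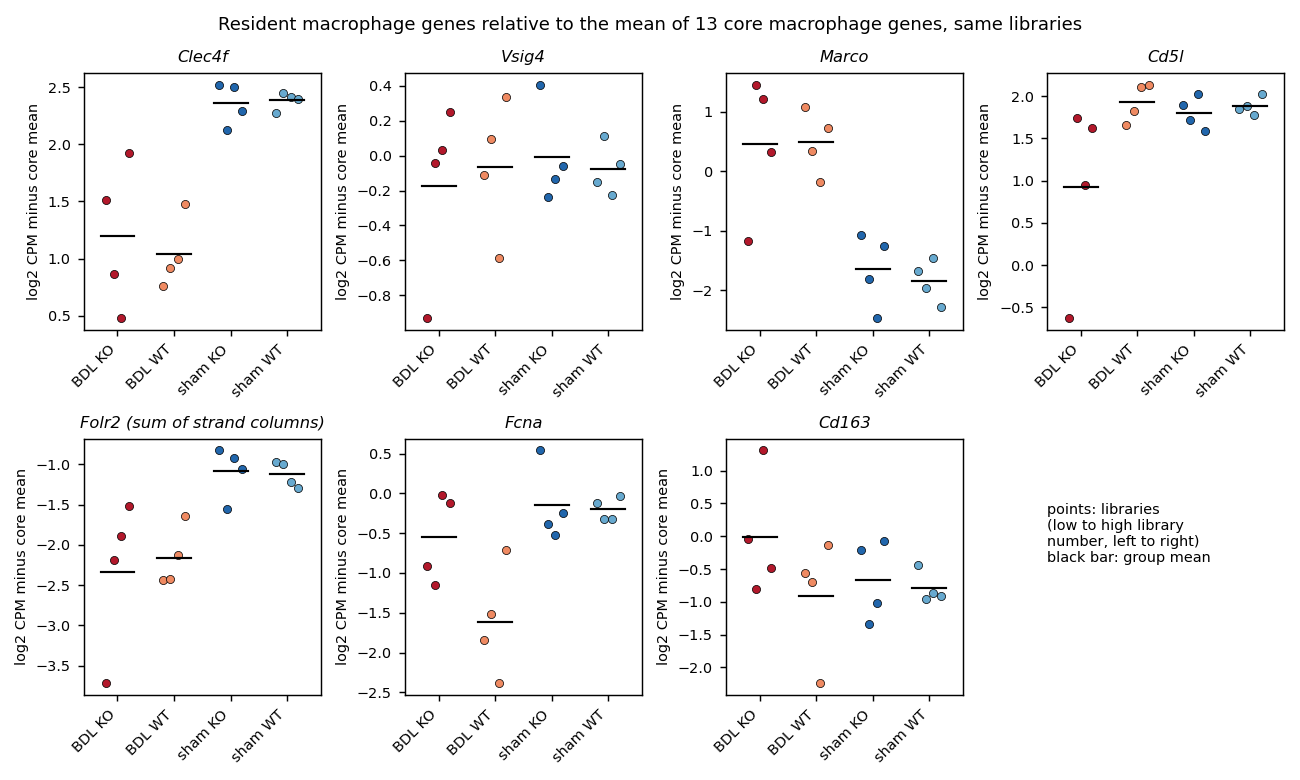
Ratio of each gene to 13 core macrophage genes (log2 CPM minus the mean log2 CPM of the core genes) in the 16 livers of the knockout experiment, in the same group order; points are libraries and bars means. Clec4f and Fcna sit lower in ligated than in sham wild-type livers (means 1.04 against 2.38 and -1.61 against -0.20), Marco sits higher (0.50 against -1.84), and Vsig4 and Cd5l overlap.

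Under the knockout label Marco and Cd163 rose with ligation. Marco rose by 3.68 ± 0.74 over knockout-labelled sham (edgeR, adjusted p = 0.00311) and Cd163 by 1.54 ± 0.47 (adjusted p = 0.0273), so 2 of the 6 members tested passed against 25.1% of genes tested. Marco had 3.02, 135, 41.9 and 20.8 CPM in knockout-labelled ligated livers against 4.59, 3.52, 1.73 and 5.73 CPM in knockout-labelled sham livers. Library 1 lay within the sham range and the other ligated ones above it. Cd163 had 6.71, 27.9, 44.7 and 11.9 CPM in knockout-labelled ligated livers against 8.39, 4.91, 4.95 and 13.1 CPM in knockout-labelled sham livers. These groups overlapped, and the call of Cd163 was lost without BDL KO 3 (1.00, adjusted p = 0.110), BDL KO 2 (1.42, adjusted p = 0.0507) or knockout-labelled sham library 1, 2 or 3 (1.36 to 1.57, adjusted p = 0.0602 to 0.0793).

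Cd5l had 4.43, 164, 34.7 and 51.3 CPM in knockout-labelled ligated livers against 36.5, 41.8, 41.7 and 41.6 CPM in knockout-labelled sham livers (0.66 ± 0.62, adjusted p = 0.451). Vsig4 had 3.57, 47.7, 18.3 and 19.8 CPM in knockout-labelled ligated livers against 12.9, 10.7, 9.25 and 13.2 CPM in knockout-labelled sham livers (0.96 ± 0.46, adjusted p = 0.130). In both genes library 1 lay below every sham library and library 2 far above them. Clec4f had 19.96, 89.5, 25.01 and 63.4 CPM in knockout-labelled ligated livers against 56.3, 55.6, 58.0 and 68.1 CPM in knockout-labelled sham livers (-0.27 ± 0.37, adjusted p = 0.618). Fcna had 3.63, 22.03, 17.7 and 15.2 CPM in knockout-labelled ligated livers against 14.2, 9.64, 7.07 and 11.7 CPM in knockout-labelled sham livers (0.46 ± 0.39, adjusted p = 0.395). Folr2 on the sum of columns by strand had 0.397, 9.92, 4.40 and 5.37 CPM in knockout-labelled ligated livers against 5.10, 3.98, 5.00 and 6.19 CPM in knockout-labelled sham livers (-0.01 ± 0.53). Without BDL KO 1 and BDL KO 3, 4 members passed: Marco at 4.32 ± 0.52, Vsig4 at 1.55 ± 0.27, Cd5l at 1.42 ± 0.38 and Cd163 at 1.35 ± 0.39 (adjusted p = 0.000208, 0.00182, 0.0211 and 0.0332). Without all libraries noted for a bad file, edgeR called Vsig4 (1.56, adjusted p = 0.00392) and Cd5l (1.42, adjusted p = 0.0363). Cd163 was not called in that fit (1.35, adjusted p = 0.0528). Without BDL KO 1 alone, Vsig4 (1.31, adjusted p = 0.0059) and Fcna (0.78, adjusted p = 0.0444) passed. Under the knockout label 7 of 13 core macrophage genes and 4 of 10 recruited-cell genes rose, with medians of 1.29 and 1.498, while Csf1r (0.91, adjusted p = 0.108), Adgre1 (0.69, adjusted p = 0.393) and Timd4 (0.11, adjusted p = 0.899) did not pass.

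Ligated livers labelled knockout were not set apart from ligated wild-type livers for any of the 7 genes by edgeR, although the estimates were below 0 for all. None of the 6 members tested passed, against 4.39% of genes tested (592 genes, and 0 to 1921 with single libraries left out), while 3 had an unadjusted p under 0.05. These were Cd5l at -1.74 ± 0.63 (adjusted p = 0.0979), Clec4f at -1.17 ± 0.37 (adjusted p = 0.0711) and Vsig4 at -1.15 ± 0.45 (adjusted p = 0.118). Marco was at -0.58, Cd163 at -0.33 and Fcna at -0.25 (adjusted p = 0.593 to 0.706), and Folr2 on the sum of columns by strand at -1.19 ± 0.53 (adjusted p = 0.162). DESeq2 called 2 of them, Clec4f at -1.16 (adjusted p = 0.0261) and Cd5l at -1.73 (adjusted p = 0.0353), against 14.1% of genes tested that it called. The result rested on single libraries. Without BDL KO 2 edgeR called 4, Cd5l at -2.81, Vsig4 at -1.84, Marco at -1.78 and Clec4f at -1.62 (adjusted p = 0.0109, 0.0134, 0.0496 and 0.0134). Without BDL KO 1 and BDL KO 3 it called 0, with Cd5l at -0.96, Vsig4 at -0.54, Clec4f at -0.53 and Marco at 0.07. The core macrophage sum over the knockout-labelled ligated livers was 241, 1051, 423 and 322 CPM in libraries 1 to 4, lowest in library 1 as for all 7 members and highest in library 2 as for 6 of them. Its part in these estimates was not tested. The summed hepatocyte level was 99045 to 148340 CPM in ligated livers labelled knockout and 45896 to 81494 CPM in ligated wild-type livers, without overlap, and its part in these estimates was not tested. Timd4 (-1.66 ± 0.57, adjusted p = 0.0858), Adgre1 (-1.69 ± 0.58, adjusted p = 0.0812) and Csf1r (-1.07 ± 0.41, adjusted p = 0.108) did not pass either.

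Sham livers did not differ by label for any member in edgeR, with 0 of 6 past against 0% of genes tested, 0 at an unadjusted p under 0.05 and 0 by DESeq2. The log2 fold changes of knockout label over wild type lay between -0.34 and 0.06. The difference between the responses to ligation, knockout label minus wild type, also gave 0 of 6, against 0% of genes tested, with 0 members at an unadjusted p under 0.05 and 0 by DESeq2. Its estimates were below 0 for each member tested, from -1.40 ± 0.87 for Cd5l (adjusted p = 0.476, 95% interval -3.25 to 0.45) to -0.07 ± 0.54 for Fcna. The passing of Cd5l and Vsig4 in wild type and not under the label is therefore not a shown difference between the labels.

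The genes whose pattern over the 16 livers was most like that of each member differed by member. Likeness was the root mean square difference of mean-centred log2 CPM, a measure in which 0 is an identical pattern. Cd5l went most closely with Adgre1 (0.33), Fcgr1 (0.33) and Timd4 (0.39), and Vsig4 with Csf1r (0.27), Cd300ld (0.34) and Was (0.36). Clec4f was closest to Lcp1 (0.26), Hexa (0.28) and Sh3bgrl (0.29), and Folr2, by columns counted by strand, to Timd4 (0.33), Jag1 (0.34) and Sdc3 (0.36). Fcna was closest to Pik3ap1 (0.34), Ctsb (0.36) and Cdh5 (0.37), and Cd163 to Galnt6 (0.42), Slc6a8 (0.43) and Lgmn (0.48). For Marco C5ar1 (0.60), Lgals3 (0.75) and Tubb2b (0.77) came first. The measure is not scaled by spread, and Marco had the widest spread of log2 CPM (SD 2.11, against 0.71 for Clec4f). Between members the smallest such difference was 0.52, for Cd5l and Vsig4, and the largest 1.94, for Clec4f and Marco. The libraries are shared by all these genes, so the values describe these 16 livers.

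The inhibitor experiment gave a second set of ligated wild-type livers, measured as FPKM. Marco passed in it in both arms and no other member did, while 5 of 7 members with DMSO and 3 of 7 with UNC569 had an unadjusted p under 0.05. With DMSO its level was 14.5 FPKM at the lowest, 25.96 at the median and 40.95 at the highest in 6 ligated livers, against 1.48, 1.44 and 1.62 FPKM in sham livers. All ligated values lay above all sham ones, and limma gave a log2 fold change of 3.33 ± 0.55 on the log2(FPKM + 1) scale, which understates changes of low genes (adjusted p = 0.00111). It was the 1 of 7 members past the threshold, against 13.4% of genes tested. With UNC569 Marco had 8.12, 6.45, 64.4 and 10.9 FPKM in ligated livers against 1.68, 5.94 and 0.863 FPKM in sham livers. The groups did not overlap, although 1 sham column came close, and the log2 fold change was 2.22 ± 0.60 (adjusted p = 0.0290), again 1 of 7 against 8.56% of genes tested. This call was lost without sham UNC569 column 0 (adjusted p = 0.112) or column 2 (0.153), and with no filter on low genes (0.0615).

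The other members overlapped between ligated and sham livers in both arms, and some passed when 1 column was left out. With DMSO these were Vsig4 (1.38, adjusted p = 0.0493) and Cd163 (0.99, adjusted p = 0.0330) without sham DMSO column 0, and Cd5l (adjusted p = 0.0361) without column 2 of ligated UNC569, which shares the fit. With UNC569 it was Cd163 (1.08, adjusted p = 0.0316) without sham UNC569 column 1. Cd5l with DMSO had 93.4 FPKM at the lowest, 142 at the median and 214 at the highest in ligated livers against 104, 37.9 and 51.2 FPKM in sham livers (1.201 ± 0.47, adjusted p = 0.0999). With UNC569 it had 47.2, 48.3, 223 and 61.0 FPKM in ligated livers against 58.1, 139 and 42.7 FPKM in sham livers (0.09 ± 0.51, adjusted p = 0.945). Column 2 of the ligated UNC569 group was the highest of its group for Cd5l, Clec4f, Marco, Vsig4, Folr2 and Fcna, and its summed neutrophil genes were 647 FPKM against 73.2 to 148 FPKM in the other 3 columns. Vsig4 was 29.1 to 78.0 FPKM in ligated livers with DMSO (median 43.3) against 9.61 to 36.5 FPKM in sham livers (1.01 ± 0.39, adjusted p = 0.0960). With UNC569 it had 19.8, 25.8, 51.1 and 36.6 FPKM in ligated livers against 21.3, 43.9 and 21.1 FPKM in sham livers (0.20 ± 0.42). Vsig4 thus overlapped in both arms.

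Cd163 was 4.23 to 8.31 FPKM (median 6.72) in ligated livers with DMSO against 5.59, 2.70 and 2.70 FPKM in sham livers (0.71 ± 0.26, adjusted p = 0.0788). With UNC569 it had 6.21, 7.68, 6.71 and 8.47 FPKM in ligated livers against 2.83, 6.29 and 2.94 FPKM in sham livers (0.78 ± 0.28, adjusted p = 0.0988). Its estimates in the arms were of similar size, and neither passed. Clec4f was 31.2 to 78.2 FPKM (median 65.7) in ligated livers with DMSO against 23.7 to 59.6 FPKM in sham livers (0.64 ± 0.36, adjusted p = 0.263), and 29.7 to 68.0 FPKM in ligated livers with UNC569 against 27.2 to 72.5 FPKM in sham livers (-0.22 ± 0.39, adjusted p = 0.800). Fcna was 12.9 to 38.7 FPKM (median 26.9) in ligated livers with DMSO against 12.0 to 18.2 FPKM in sham livers (0.64 ± 0.30, adjusted p = 0.175), and 16.9 to 31.5 FPKM in ligated livers with UNC569 against 16.8 to 21.997 FPKM in sham livers (0.11 ± 0.33). Both lectins overlapped between groups.

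Folr2 had the lowest estimate of the set with UNC569. It had 5.22, 3.07, 13.7 and 5.40 FPKM in ligated livers with UNC569 against 9.07, 21.4 and 8.74 FPKM in sham livers with UNC569 (-0.90 ± 0.42, adjusted p = 0.210). Without column 2 of the ligated group it fell by 1.25 on the log2 scale (adjusted p = 0.0451). With DMSO it was 7.32 to 17.3 FPKM (median 12.2) in ligated livers against 15.1, 6.77 and 10.8 FPKM in sham livers (0.18 ± 0.39, adjusted p = 0.803). The ratio to core macrophage genes, here on log2(FPKM + 1), had groups that did not overlap for 12% of all genes with UNC569 and 55.8% with DMSO, most of them lower. It was lower for Folr2 in ligated livers of both arms, at -1.65 in ligated against -0.40 in sham livers with UNC569 and at -1.48 in ligated against -0.35 in sham livers with DMSO, with no overlap in either. Marco was higher by that ratio with no overlap (-0.54 in ligated against -2.39 in sham livers with UNC569, and -0.51 in ligated against -2.53 in sham livers with DMSO). Clec4f was lower with UNC569 (0.86 in ligated against 1.44 in sham livers, no overlap), and its groups overlapped with DMSO.

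**Figure D3:**
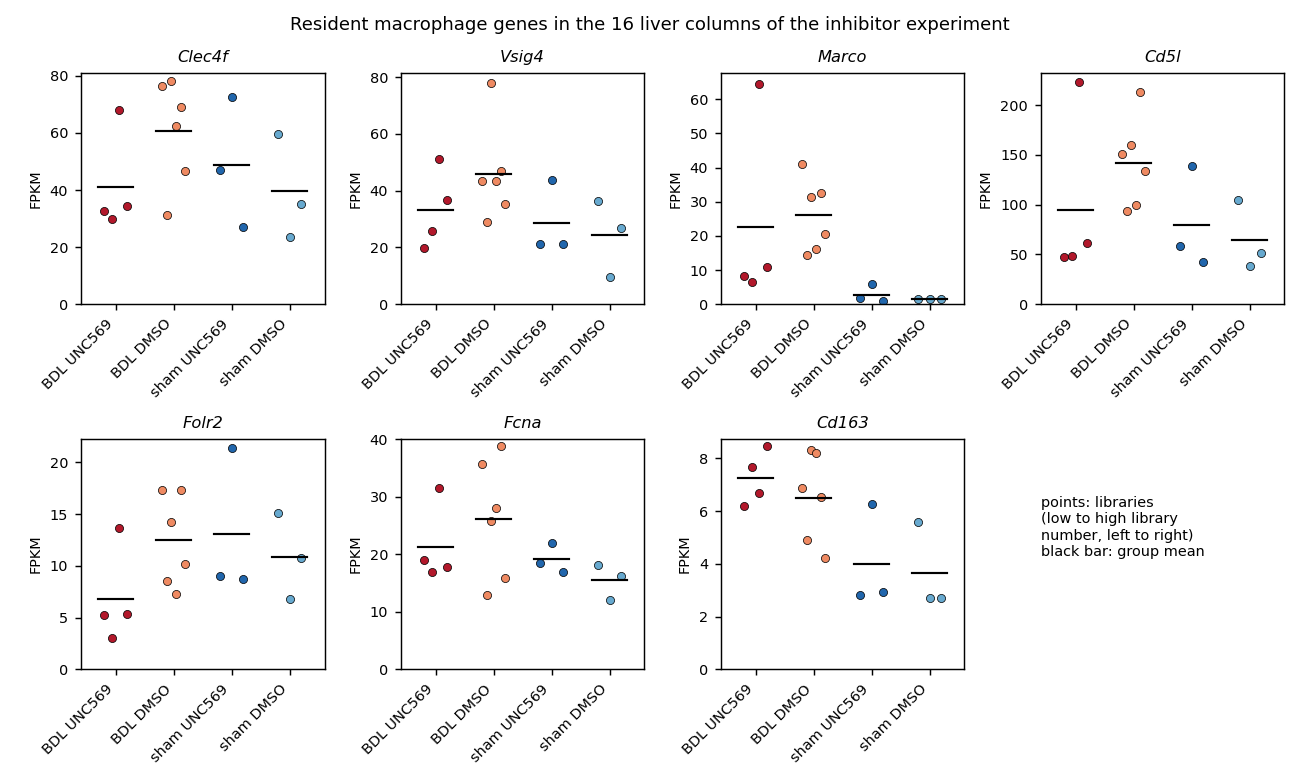
FPKM (linear axis) of the 7 genes in the 16 liver columns of the inhibitor experiment. Groups from left to right are BDL with UNC569, BDL with DMSO, sham with UNC569 and sham with DMSO. Points are columns and bars arithmetic means. Marco lay at 6.45 to 64.4 FPKM in ligated livers with UNC569 and 14.5 to 40.95 FPKM in those with DMSO, above the sham columns, and 1 ligated column with UNC569 stood apart in several genes.

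The direct comparison of UNC569 with DMSO in ligated liver had 0 of 7 members past the threshold of limma, against 0.316% of genes tested, and 1 at an unadjusted p under 0.05. That was Folr2 at -0.88 ± 0.35 (adjusted p = 0.357, 95% interval -1.63 to -0.14). Cd5l was at -0.86 ± 0.43 and Marco at -0.74 ± 0.51 (adjusted p = 0.473 and 0.611), Clec4f at -0.56 ± 0.33, Vsig4 at -0.47 ± 0.36, Fcna at -0.23 ± 0.28 and Cd163 at 0.16 ± 0.24. In sham liver UNC569 against DMSO gave 0 of 7, against 0% of genes tested, and 0 at an unadjusted p under 0.05, with estimates from 0.10 to 0.38. The difference between the responses to ligation, UNC569 minus DMSO, gave 0 of 7 as well, against 0% of genes tested, and 0 at an unadjusted p under 0.05. Its estimates ran from -1.12 ± 0.82 for Marco and -1.07 ± 0.57 for Folr2 to 0.07 ± 0.38 for Cd163 (adjusted p = 0.999 each). Of the core macrophage genes 1 of 13 rose with ligation under UNC569 (median 0.47) and 8 of 13 under DMSO (median 1.48, with Csf1r at 1.17 ± 0.39, adjusted p = 0.0556, and Adgre1 at 0.62), and 0 of 13 differed between UNC569 and DMSO in ligated liver (median -0.71). The summed core level was 458 to 1283 FPKM in ligated livers with UNC569 and 794 to 1874 FPKM in those with DMSO. The summed hepatocyte level was 34347 to 38325 FPKM in ligated livers with UNC569 and 22501 to 31170 FPKM in those with DMSO, and its part in the members' estimates was not tested.

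**Figure D4:**
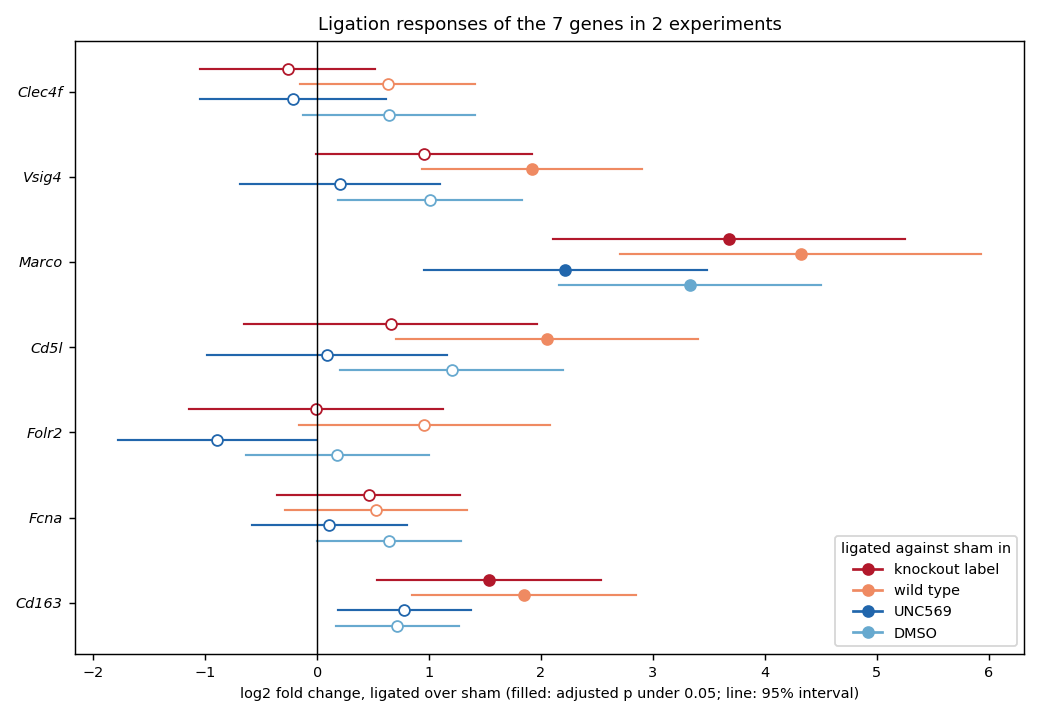
Log2 fold changes of ligated over sham liver with 95% intervals for each gene in the 4 arms (knockout label, wild type, UNC569 and DMSO); filled points passed an adjusted p of 0.05, and Folr2 in the knockout experiment is the sum of columns by strand. Marco passed in all 4 arms, at 2.22 to 4.32, whereas Clec4f, Fcna and Folr2 passed in none.

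Per unit of length, the members differed widely in level in uninjured liver. In sham liver with DMSO Cd5l averaged 64.5 ± 35.1 FPKM, Clec4f 39.5 ± 18.3, Vsig4 24.3 ± 13.6, Fcna 15.5 ± 3.17, Folr2 10.9 ± 4.15, Cd163 3.66 ± 1.67 and Marco 1.51 ± 0.0903 FPKM (SD, n = 3). Neighbours in this order from Cd5l down to Folr2 had overlapping columns, while all columns of Folr2 were above those of Cd163 and all of Cd163 above those of Marco. In ligated liver with DMSO Marco averaged 26.03 ± 10.5 FPKM (SD, n = 6), a level near that of Fcna (26.1 ± 10.4), with Cd5l at 142 ± 44.2 FPKM still first and Cd163 at 6.52 ± 1.68 FPKM last.

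Kidney held little RNA of most of these genes. In the 14 kidney libraries of the knockout experiment Clec4f had 2 reads in 1 library, Vsig4 33 reads in 8, Marco 54 in 9, Cd5l 61 in 10 and Fcna 93 in 11, and these counts and all floors below cover counting error only. By the counts that ignore strand, Cd163 alone had reads in all 14 (2 to 168). Folr2 had 0 to 33 reads a library by those counts. On the sum of columns by strand, which may include reads of Gm10602, it had 28 to 206 in each. Of the 7, Cd163, Fcna and Folr2 passed the filter on low counts and were tested.

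Cd163 rose with obstruction under the knockout label. It had 3.29, 2.83, 7.72 and 3.53 CPM in knockout-labelled obstructed kidneys against 0.149, 0.970, 0.446 and 0.377 CPM in knockout-labelled sham kidneys. The groups were apart, and the log2 fold change was 3.11 ± 0.58 (edgeR, adjusted p = 0.000427), which made 1 of 3 members tested past against 59.1% of genes tested. In wild type it had 3.74, 8.76 and 4.49 CPM in obstructed kidneys against 2.88, 1.93 and 0.824 CPM in sham kidneys. These groups did not overlap either, but the log2 fold change of 1.59 ± 0.63 did not pass (adjusted p = 0.0578), so 0 of 3 members tested passed against 39.3% of genes tested, with 1 at an unadjusted p under 0.05. DESeq2 called Cd163 here (1.49, adjusted p = 0.0399), as did edgeR without sham wild-type library 2 (2.06, adjusted p = 0.0444). Core macrophage genes rose in full, 13 of 13 in both labels (median 3.68 under the knockout label and 3.90 in wild type), with Adgre1 at 4.49 and 4.00. The ratio of Cd163 to them was -4.62 in knockout-labelled obstructed against -4.01 in knockout-labelled sham kidneys, and -4.12 in wild-type obstructed against -2.05 in wild-type sham kidneys, with overlap in each pair.

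The labels were not told apart by these genes in kidney. In obstructed kidney 0 of 3 members tested passed edgeR, against 0% of genes tested, with 0 at an unadjusted p under 0.05 and 0 by DESeq2. Fcna, on few reads, was at -2.19 ± 1.11 there for knockout label over wild type (adjusted p = 0.435), with groups that did not overlap. In sham kidney 0 of 3 passed against 0.0061% of genes tested, with 1 at an unadjusted p under 0.05 and 0 by DESeq2. That was Cd163 at -1.91 ± 0.62 for knockout label over wild type (adjusted p = 0.219), which passed without sham wild-type library 4 (-2.21, adjusted p = 0.0251) and without the libraries noted for a bad sequence file (-3.07, adjusted p = 0.0445). In the second of these fits 1 wild-type sham library is left, assumed to vary like the other groups. The difference between the responses to obstruction gave 0 of 3, against 0% of genes tested, with 0 at an unadjusted p under 0.05 and 0 by DESeq2, and was 1.52 ± 0.83 for Cd163 (adjusted p = 0.246). Folr2 rested on 0 to 33 reads a library in the counts that ignore strand. On the sum of columns by strand it was 0.37 ± 0.57 with obstruction under the knockout label and 0.44 ± 0.66 in wild type (adjusted p = 0.590 and 0.630).

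In the inhibitor experiment Folr2 was the member with FPKM of at least 1 in at least 3 kidney columns, and it was lower in obstructed than in sham kidney with DMSO. It had 0, 1.85, 1.36 and 2.20 FPKM in obstructed kidneys with DMSO against 2.89, 5.02 and 5.02 FPKM in sham kidneys with DMSO. All obstructed columns lay below all sham ones and the log2 fold change was -1.27 ± 0.43 (limma, adjusted p = 0.0194), which made 1 of 1 member tested past against 55.5% of genes tested. The call was lost without sham DMSO column 1 or 2 or obstructed DMSO column 0, the one listed at 0 (adjusted p = 0.0636 to 0.0706). With UNC569 Folr2 was 0.548 FPKM at the lowest, 2.75 at the median and 4.26 at the highest in 7 obstructed kidneys against 4.18, 1.35 and 1.43 FPKM in sham kidneys. These overlapped, with 0.14 ± 0.39 (adjusted p = 0.767), 0 of 1 member tested past against 62.1% of genes tested and 0 at an unadjusted p under 0.05. All 13 core macrophage genes rose with obstruction in both arms (median 3.44 with UNC569 and 2.75 with DMSO). The 6 members not tested stayed low in these tables: Cd5l reached 1.01 FPKM, Cd163 0.7102, Fcna 0.609, Vsig4 0.4929, Clec4f 0.441 and Marco 0.310 at the highest.

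UNC569 against DMSO gave 0.66 ± 0.36 for Folr2 in obstructed kidney (adjusted p = 0.327; 0 of 1 past, against 1.3% of genes tested) and -0.75 ± 0.46 in sham kidney (adjusted p = 0.275; 0 of 1 past, against 19.3%). Neither had an unadjusted p under 0.05. Of the core macrophage genes 6 of 13 fell with UNC569 in sham kidney (median -0.74). The difference between the responses to obstruction, UNC569 minus DMSO, was 1.41 ± 0.59 (adjusted p = 0.0966, unadjusted p under 0.05), with 0 of 1 past against 19.6% of genes tested. It passed without sham UNC569 column 0 (1.79, adjusted p = 0.0477) or obstructed UNC569 column 0 (1.60, adjusted p = 0.0376).

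Lung held Folr2, Marco and Cd163 at low levels, and bleomycin, which injures the alveolar lining, gave no call among the 4 members tested (these and Fcna). Marco, in lung a receptor of alveolar macrophages, was 0.748 to 3.40 FPKM (median 2.07) in bleomycin lungs with UNC569 and 1.55 to 5.15 FPKM (median 1.98) in those with DMSO, against 1.12, 1.504 and 1.99 FPKM in sham lungs with UNC569 and 1.57, 3.16 and 1.35 FPKM in those with DMSO. Folr2 was 3.56 to 6.25 FPKM (median 4.61) in bleomycin lungs with UNC569 and 2.31 to 5.51 FPKM (median 3.94) in those with DMSO, against 3.13, 5.48 and 3.05 FPKM in sham lungs with UNC569 and 4.90, 5.72 and 3.70 FPKM in those with DMSO. All 4 groups overlapped in both genes. Cd163 ranged from 0.732 to 2.97 FPKM over all 18 columns, and Fcna stayed at or below 1.77 FPKM except for 4.57 FPKM in 1 sham column with UNC569. Vsig4 reached 1.13 FPKM and Cd5l 1.07 FPKM at the highest, and Clec4f was listed at 0 in every column but 1 (0.0797 FPKM).

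By limma 0 of 4 passed for bleomycin with UNC569 (against 0.0251% of genes tested) and with DMSO (against 0.069%), with estimates of -0.30 to 0.34. The same count of 0 held for UNC569 against DMSO in bleomycin lung and in sham lung and for the difference between the responses, against 0% of genes tested in each, with estimates of -0.63 to 0.74. No member had an unadjusted p under 0.05 in any of these 5 comparisons. Genes of alveolar macrophages were present at a summed level of 278 to 518 FPKM in bleomycin and 255 to 351 FPKM in sham lungs, and 0 of 10 passed in either arm. Core macrophage genes did not pass either (0 of 13 in each arm), although their mean with DMSO was 5.60 in bleomycin against 4.65 in sham lungs, with no overlap. The ratio to that mean was lower with no overlap for Folr2 (-3.37 in bleomycin against -2.14 in sham lungs with DMSO), Cd163 (-4.54 against -3.29) and Marco (-3.86 against -3.10), and overlapped for Fcna. With DMSO 37.1% of all genes had no overlap, nearly all lower, and with UNC569, where all 4 members overlapped, 5.25% had none. These ratios use log2(FPKM + 1), which understates changes of genes as low as Cd163 and Marco here, so nothing particular to the members is read from them.

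Between organs, Clec4f, Vsig4, Marco, Cd5l, Fcna and Cd163 were higher in wild-type sham liver than in wild-type sham kidney by edgeR, in a joint fit of 30 libraries in which 6 of 7 members were called, against 50.6% of genes tested that differed in either direction. Clec4f, Vsig4, Marco and Cd5l did not pass the filter on low counts among kidney libraries and entered the joint fit through liver, so they had to differ, the count of 6 supports nothing, and their values are a description. CPM in this paragraph are scaled over the 30 libraries of the joint fit, so they differ from those given above for the same libraries. Clec4f averaged 99.8 ± 13.6 CPM in sham liver (SD, n = 4) and had 0 reads in the 3 sham kidneys. Set against a floor of 3 reads over the kidney group (0.0688 CPM), it was at least 1451-fold higher in liver. Vsig4, with 1 read over the 3 kidneys, had a ratio of 792 (95% interval 142 to 31269), and Marco, with 2 reads, a ratio of 113 (31.2 to 931), where the intervals are exact and cover counting error only. Cd5l differed by 8.27 ± 1.05 (log2), Fcna by 5.83 ± 0.80 and Cd163 by 3.05 ± 0.61 (adjusted p = 0.00015). Folr2 did not pass, at 1.00 ± 0.93 (adjusted p = 0.385), and on the sum of columns by strand it stood at 8.14 ± 1.37 CPM in sham liver (SD, n = 4) and 3.02 ± 1.66 CPM in sham kidney (SD, n = 3; adjusted p = 0.0631). Tissue and any difference in handling between the tissues cannot be told apart. With the kidney libraries UUO Sham WT 1 and UUO WT 1 put back, Clec4f (2.17), Vsig4 (1.90), Marco (1.54) and Cd5l (2.00) lost the call. Timd4 was also higher in sham liver by edgeR (9.63 ± 1.76, adjusted p = 9.01e-05). This value is likewise given as a description, and nothing is read from the call. Csf1r did not pass (0.09 ± 0.47, adjusted p = 0.888).

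**Figure D5:**
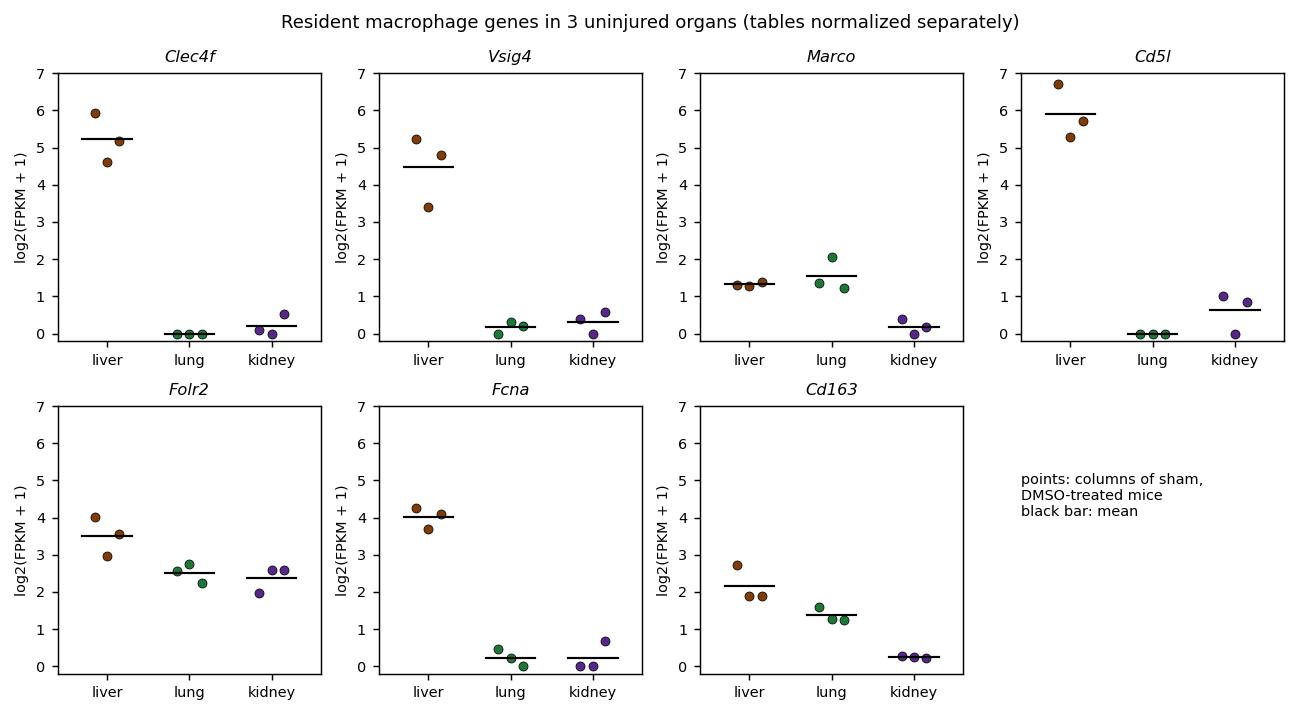
Log2(FPKM + 1) of the 7 genes in sham liver, sham lung and sham kidney with DMSO, 3 columns each; points are columns and bars means, and the tables of the organs were normalised separately, so no test was made. Clec4f, Vsig4, Cd5l and Fcna were high in liver, while Folr2 was present in all 3 organs at a mean of 10.9 FPKM in liver, 4.77 in lung and 4.31 in kidney.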

How the data were processed

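For the knockout experiment the deposited values are counts of reads per gene, 1 file a library, in a layout that STAR writes. Per the labels' protocols, the kit was TruSeq RNA v2, with reads of 100 bases, and the submitters' processing notes name FastQC, Trim Galore, STAR, edgeR and the builds hg38 and mm10. The column that ignores strand was used, and rows that name no gene were left out. For the inhibitor experiment the authors deposited FPKM values, 1 table an organ, and their depth is unknown. FPKM columns name a group but no sample, so columns are numbered from 0 as in the tables, and liver BDL with UNC569 has 4 columns for 6 samples and kidney UUO with UNC569 has 7 for 8.

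Counts were filtered with filterByExpr, scaled by TMM and tested with edgeR 4.0.16 (quasi-likelihood, 1 term a group, R 4.3.3); FPKM of at least 1 in at least 3 columns were tested as log2(FPKM + 1) with limma 3.58.1 (trend). P-values were adjusted over all genes by Benjamini-Hochberg, with a threshold of 0.05, in 26 comparisons. All p-values measure the spread between these libraries. Ratios to core genes and likeness used log2 CPM with a prior count of 2, and on FPKM log2(FPKM + 1). Alternatives were DESeq2 1.42.0, other scaling, filters and pseudocounts, the replicate block, single omissions and, added after seeing the data, the sum of the strand columns. Fits were also run on data simulated from their own fitted spread. That checks the code only, not whether the models suit these libraries. Members are given with their test where tested and by their highest value or reads otherwise; lists are given by counts, with their 2 genes of smallest p for the main lists of the wild-type ligation response, and Timd4, Adgre1 and Csf1r are followed. The members and the 21 lists were chosen with earlier results of these data known. The kidney libraries UUO Sham WT 1 and UUO WT 1 entered fits only as an alternative.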

Additional observations from a re-analysis of the deposited data

Results flagged for a closer look

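Of 83 sets of 4 to 10 libraries of 1 group, 16 held a library that stood far from the others of its group for 1 of the 7 genes. Chance gives about 1 in 20 for well-measured values, a share that does not apply where all other libraries are at 0 (Clec4f and Marco in kidney), and 4 of the 16 share 1 column. In liver counts these were Cd5l at 36.5 CPM in library 1 of knockout-labelled sham, Cd5l at 364 CPM in library 3 of ligated wild type, and Folr2 at 0.262 CPM in library 1 of knockout-labelled sham, by the counts that ignore strand. Column 2 of liver BDL with UNC569 stood high for 4 genes at once, with Clec4f at 68.0 FPKM, Marco at 64.4 FPKM, Cd5l at 223 FPKM and Fcna at 31.5 FPKM. Column 2 of liver BDL with DMSO stood high for Vsig4, at 78.0 FPKM.

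In kidney Clec4f was at 0.105 CPM in library 1 of knockout-labelled obstruction and Cd163 at 7.72 CPM in library 3 of the same group. Among obstructed kidneys with UNC569 Marco was at 0.0922 FPKM in column 4 and Fcna at 0.433 FPKM in column 3. In lung Vsig4 was at 0.434 FPKM in column 1 of bleomycin with UNC569. With DMSO after bleomycin, Marco was at 5.15 FPKM in column 4, Fcna at 1.77 FPKM in column 5 and Cd163 at 2.34 FPKM in column 1.

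The kidney library titled UUO Sham WT 1, which enters the report's comparisons only where it is put back, held Kupffer genes at levels far over those of the other 3 sham wild-type kidneys. Scaled to its own total without TMM, Clec4f was at 65.7 CPM in it, against 0 in the others. Vsig4 was at 14.5 CPM, against 0.0824 CPM in the highest of the others, Marco at 5.34 CPM, against 0.165 CPM, and Cd5l at 51.9 CPM, against 0.720 CPM. Fcna was at 6.25 CPM, against 0.804 CPM, and Cd163 at 4.17 CPM, against 2.88 CPM. The origin of these reads was not tested.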

How the results depend on the processing

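Counts of members past the threshold changed as follows, and the cause was not tested. After ligation under the knockout label 2 passed, against 1 with the replicate block (Marco, with Cd163 at an adjusted p of 0.0565) and 4 without BDL KO 1 and BDL KO 3. DESeq2 called 2 where edgeR called 0 between the labels in ligated liver, and 1 where edgeR called 0 for obstruction in wild type. Without the libraries noted for a bad file 1 passed between the labels in sham kidney, in place of 0, but this leaves 1 library in each wild-type kidney arm, assumed to vary like the other groups. With UUO Sham WT 1 and UUO WT 1 put back, 2 in place of 6 differed between sham liver and sham kidney. With no filter on low FPKM 0 in place of 1 passed for ligation with UNC569, 4 in place of 1 for obstruction with DMSO, and 2 in place of 0 for UNC569 in sham kidney. In these 2 kidney comparisons 55.5% and 19.3% of genes tested passed with the filter. The kidney members that this setting added lay at 1.01 FPKM or lower, so nothing is read from their calls.

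With each library left out in turn, the count was 3 to 4 for ligation in wild type, 1 to 4 under the knockout label, 0 to 4 between the labels in ligated liver, 0 to 1 for obstruction in wild type and 0 to 1 between the labels in sham kidney. It was 0 to 2 for ligation with UNC569, 1 to 3 with DMSO, 0 to 1 for obstruction with DMSO and 0 to 1 for the difference by UNC569 of that response. Over all genes, the same omissions called 2852 to 5094 for ligation in wild type and 2101 to 4399 under the knockout label. For obstruction in wild type they called 4672 to 7215. Ligation called 471 to 1405 with UNC569 and 730 to 2257 with DMSO. Obstruction with DMSO called 7494 to 8682, and the difference by UNC569 of that response 1963 to 3315. No called value changed sign under any of these alternatives.

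Over all genes, 592 differed between the labels in ligated liver by edgeR, against 1908 by DESeq2, 322 with no filter, 239 with the replicate block, 0 without the bad files and 4 without BDL KO 1 and BDL KO 3. Ligation under the knockout label called 3392 genes, against 1724 without the bad files and 2142 without those 2 libraries, and in wild type 3927, against 5951 without them. In the difference by label of the ligation response 0 genes passed, against 146 by DESeq2. In sham kidney 1 gene passed between the labels, against 315 by DESeq2 and 965 without the bad files, and in the difference of the obstruction response 0, against 1651 and 1789; the 965 and 1789 rest on those arms of 1 library. Between UNC569 and DMSO 41 genes passed in ligated liver, against 15 with a pseudocount of 0.1 and 1 with no filter, and 199 in obstructed kidney, against 46 with that pseudocount. Bleomycin with DMSO called 11, against 25 with that pseudocount and 19 with median-of-ratios scaling. With single libraries left out, the label comparison in ligated liver called 0 to 1921 genes, that in sham kidney 0 to 4002 and bleomycin with DMSO 0 to 1911.

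Same-numbered libraries did not deviate together more than others. Their r was -0.296 to 0.267 over 24 pairs in liver (5 over 0.1) and -0.290 to 0.166 over 19 in kidney (4 over 0.1). Medians were -0.003 in liver and -0.030 in kidney, against 0.006 and -0.007 for other pairs. Such correlations cannot exclude that the numbers stand for something shared, and the replicate block was fitted only as an alternative. In the inhibitor experiment no paired analysis was possible, because the FPKM columns carry no replicate number of the labels. Depth limits Clec4f, Vsig4, Marco and Cd5l in kidney, where 2 to 61 reads were found over 14 libraries.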
